A study of Sus scrofa with 12 samples.

Results

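The TGF-beta and BMP signalling genes were described in the m6A peaks of fresh (Fs) and frozen-thawed (Fts) boar sperm. They were chosen by symbol from the RefSeq mRNA genes of Sscrofa11.1: TGFB and BMP ligands, GDFs, inhibin beta chains, TGFBR, BMPR and ACVR receptors, SMADs, latent TGF-beta binding proteins (LTBPs) and SMURFs. The choice gave 52 of 20665 mRNA genes, namely 25 ligands, 12 receptors, 8 SMADs, 4 LTBPs, 2 SMURFs and BMP1. BMP1 carries a ligand's name but is a procollagen protease. In the study, ejaculates of 3 Duroc boars were each split. The Fs part went untreated into liquid nitrogen for RNA extraction. The Fts part was cooled to 17 °C, taken up in a lactose and egg yolk extender, kept for 4 h at 4 °C, given an extender with 6% glycerol, held at -130 °C above liquid nitrogen for 15 min, frozen in straws and thawed. All samples were total RNA depleted of ribosomal RNA and broken into pieces of about 100 nucleotides. Pieces with N6-methyladenosine (m6A) were pulled down with an antibody (IP) and sequenced beside an unselected input. Each group held 3 IP samples and 3 inputs. No label names a boar or an ejaculate for a sample, and the age of the boars and any pooling are not in the labels.

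TGF-beta and BMP ligands are secreted dimers that bind pairs of type I and type II serine/threonine kinase receptors. The receptors phosphorylate SMAD2 and SMAD3 on the TGF-beta and activin side, or SMAD1, SMAD5 and SMAD9 on the BMP side. These join SMAD4 and act on transcription in the nucleus. LTBPs other than LTBP2 hold latent TGF-beta in the extracellular matrix. SMAD6 and SMAD7 inhibit the pathway, and SMURF ubiquitin ligases mark SMADs and receptors for degradation. In the testis the pathway is known for its part in germ cell development and in the work of Sertoli cells. Mature sperm are nearly silent in transcription, so that their mRNA is largely a store from earlier stages.

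In a peak, IP reads exceed what the input of the same sample would lead to. Its MACS score was read as 10 times -log10 of a p-value, so that 20 stands for a p of 0.01 and 50 for a p of 1e-05. This scale was inferred from the range of the scores and the use of MACS, and is not stated for the lists. On this reading the lowest listed score stood for a p of 0.499, so weak peaks are part of the lists. Fs lists held 8015 to 10378 peaks and Fts lists 9682 to 11982. They hold no read numbers, so the reads behind a single peak are unknown and no interval is given. For whole libraries the study gives mapped reads, which were fewer in every Fts than in every Fs IP sample. Mapped reads of the inputs overlapped between the groups. The part of this depth difference in the peaks and scores was not tested. A peak was counted for a gene when it lay on an exon on the same strand. A score measures the surety of enrichment and can move with the amount of RNA, and a gene with no peak may have lacked m6A or RNA. Fewer cells that carry an mRNA and less mRNA per cell cannot be told apart in these samples.

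Of the 52 genes, 29 (55.8%) had a peak in at least 1 sample, beside 11705 (56.6%) of all mRNA genes. The median exon length was 5216 nt for the genes with a peak and 3609 nt for the 23 without. Ligands were the role most often without a peak, 15 of 25: BMP2, BMP5, BMP6, BMP10, BMP15, GDF2, GDF3, GDF5, GDF6, GDF7, GDF9, GDF10, GDF15, INHBB and INHBE. The others without a peak were the receptors ACVR1B, ACVR2B and TGFBR3, the signal carriers SMAD3 and SMAD9, the inhibitory SMAD6 and SMAD7, and SMURF2. Each of the 4 LTBP genes had a peak.

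The genes together held 24, 28 and 23 peaks in Fs, and 25, 22 and 30 in Fts. The means of 25 ± 2.65 and 25.7 ± 4.04 (SD, n = 3) differed by 0.667 peaks, less than the spread between replicates, and the groups overlapped. Per 1000 peaks of the sample, the values were 2.99, 2.70 and 2.23 in Fs and 2.58, 1.91 and 2.5 in Fts, and these overlapped as well. The coding sequence held 56.1 ± 5.6% of their peaks in Fs and 58.4 ± 2.10% in Fts (n = 3 each), while over all genes its share was 64.4 ± 0.720% in Fs and 70.0 ± 0.493% in Fts. These shares count peaks whose midpoint fell outside the longest coding transcript. With the samples of a group pooled, such peaks were 26.7% of theirs in Fs and 22.1% in Fts, beside 10.8% and 8.44% over all genes. So the lower coding shares do not show fewer coding peaks among those that could be placed. The median score of their peaks was 18.7 ± 3.41 in Fs and 16.5 ± 5.65 in Fts.

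**Figure D1:**
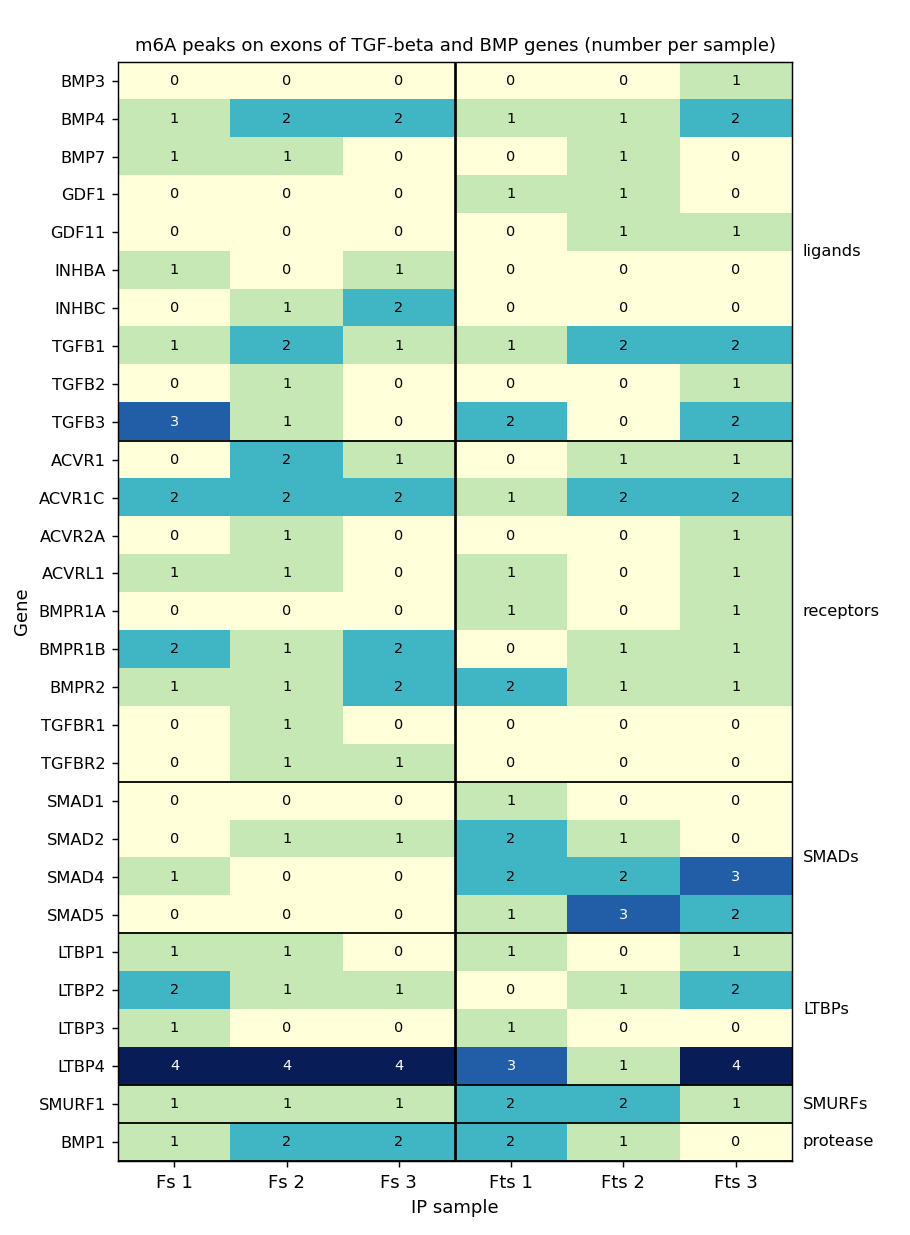
Number of m6A peaks on the exons of each of the 29 genes with a peak (rows, by role) in each IP sample (columns, 3 Fs and 3 Fts). SMAD4 and SMAD5 are the genes whose Fts samples all hold more peaks than every Fs sample, and LTBP4 holds 4 peaks in each Fs sample.

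Summed over the SMAD genes there was 1 peak in each Fs sample, and Fts held 6, 6 and 5. Exons that adjoin in the mRNA can carry 1 stretch of signal as several listed peaks, and with such peaks joined the Fts values were 6, 3 and 4, still above every Fs sample. SMAD4 and SMAD5 carried this sum, since the other SMADs together had 0, 1 and 1 peaks in Fs and 3, 1 and 0 in Fts, which overlapped. No such sum over all genes was made. The sums of the other roles overlapped between the groups. Ligands had 7, 8 and 6 peaks in Fs and 5, 6 and 9 in Fts. Receptors had 6, 10 and 8 in Fs and 5, 5 and 8 in Fts, and LTBPs had 8, 6 and 5 in Fs and 5, 2 and 7 in Fts. Over the length of their exons, the LTBPs held 1.30 peaks per kb in the 6 samples together and BMP1 held 2.15, against 0.634 for SMURFs, 0.531 for ligands, 0.422 for receptors and 0.359 for SMADs. LTBP4 held most of the LTBP peaks, and the other LTBPs were at 0.647 per kb.

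**Figure D2:**
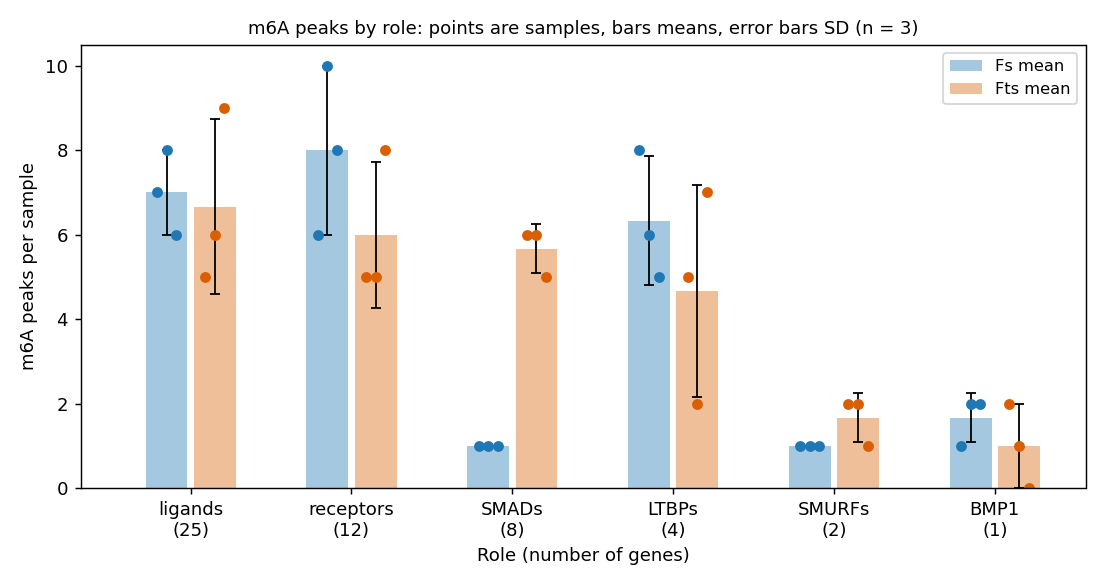
m6A peaks per sample summed by role (x axis, with the number of genes; y axis, peaks). Points are the 3 Fs and 3 Fts samples, bars are means and error bars SD. The SMADs show 1 peak in every Fs sample and 5 or 6 in every Fts sample, and the points of the other roles overlap between the groups or share values.

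More peaks in every Fts than in every Fs sample were found for 2 of the 29 genes (6.90%), SMAD4 and SMAD5, beside 8.98% of all 11705 genes with a peak. More peaks in every Fs sample were found for 0 of the 29, beside 5.36% of all genes. No single gene can pass the usual threshold here, because 3 against 3 samples allow no two-sided exact permutation p under 0.1. A gene named because its groups do not overlap has this p of 0.1 by that choice, so its p adds no support. These p-values measure only the spread between the samples of a group, which may be technical. So a difference is reported below as groups that do or do not overlap, and the share of SMAD4 and SMAD5 among these genes was not above the background.

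SMAD5, a BMP signal carrier (chr2, plus strand, 7 exons), had no peak in any Fs sample, and 1, 3 and 2 peaks in the Fts samples. The SMAD5 means were 0 and 2 ± 1 (n = 3; exact two-sided permutation p = 0.1, the smallest possible and fixed by the choice of the gene). Its main region was the whole of exon 2, chr2:138308109-138308679 in Sscrofa11.1, which is 571 nt long and holds the start codon. The scores there were 156, 269 and 198 in the Fts samples, all of them high. Exon 3 (chr2:138315762-138316013) followed with scores of 5.26 in Fts 2 and 17.3 in Fts 3, and exon 4 with 3.79 in Fts 2. With adjoining peaks joined, each Fts sample held 1 peak on SMAD5, which began at exon 2 and ran on for different lengths. SMAD5 was the only gene of the 29 with a peak in all Fts and no Fs sample (3.45%), beside 5.59% of all genes.

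SMAD4, the common partner of the receptor-regulated SMADs (chr1, plus strand, 12 exons), had 1, 0 and 0 peaks in Fs and 2, 2 and 3 in Fts. The SMAD4 means were 0.333 ± 0.577 and 2.33 ± 0.577 (n = 3; exact two-sided permutation p = 0.1, again fixed by the choice). The only Fs peak lay on exon 10, at a score of 4.89. The region shared by the Fts samples was the whole of exon 6, chr1:100601423-100601542, 120 nt of coding sequence, with scores of 16.9, 391 and 163. Fts 1 was the low sample there, with a score under 20, read as a p above 0.01. Fts 2 also held the adjoining exon 5 with a score of 131, and exon 2, with the start codon, was listed in Fts 1 and Fts 3 at 18.4 and 8.30. With adjoining peaks joined, SMAD4 had 2, 1 and 3 peaks in Fts, and its groups overlapped at 1 peak.

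The other SMADs with a peak were weaker. SMAD2, which carries TGF-beta and activin signals, had 0, 1 and 1 peaks in Fs and 2, 1 and 0 in Fts, highest at 83.0 in Fs 3 and 36.2 in Fts 1, so that its groups overlapped. SMAD1 had 1 peak, at 8.64 in Fts 1. In each of the 4 SMADs with a peak, 1 region covered the start codon of the longest coding transcript. Among all the TGF-beta and BMP regions this was so for 8 of 66 (12.1%), close to 11.2% of the regions of all genes.

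The m6A mark is laid mostly within RRACH, where R is a purine and H is any base but G, so 12 forms exist: they start with GG, GA, AG or AA, and end with ACT, ACA or ACC. They were searched on the transcript strand in the 51 bases around the middle of each region. A form was present in 34 of the 66 regions (51.5%), near the 50% of 26220 regions over all genes. GGACT alone was in 2 (3.03%), beside 4.97% of all regions, so these regions were not richer in the motif than others. The windows of 25 bases below come from the RefSeq genome sequence of Sscrofa11.1, 5′ to 3′ on the transcript strand. They show SMAD5 exon 2 and SMAD4 exon 6, listed in all Fts and no Fs samples, and SMAD4 exon 5, listed in Fts 2 only. As in the later windows, capitals mark GGACT where the region holds it and otherwise the form nearest its middle. A form is a match of letters and does not place the methylated base, which fragments of this length cannot resolve.
SMAD5 exon 2, chr2:138308417-138308441, plus strand: tgccatggagGAACTggaaaaagcc
SMAD4 exon 6, chr1:100601484-100601508, plus strand: gcctcagccaGGACAgcagcagaat
SMAD4 exon 5, chr1:100597573-100597597, plus strand: gcatcgacggAGACAtacagcaccc

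**Figure D3:**
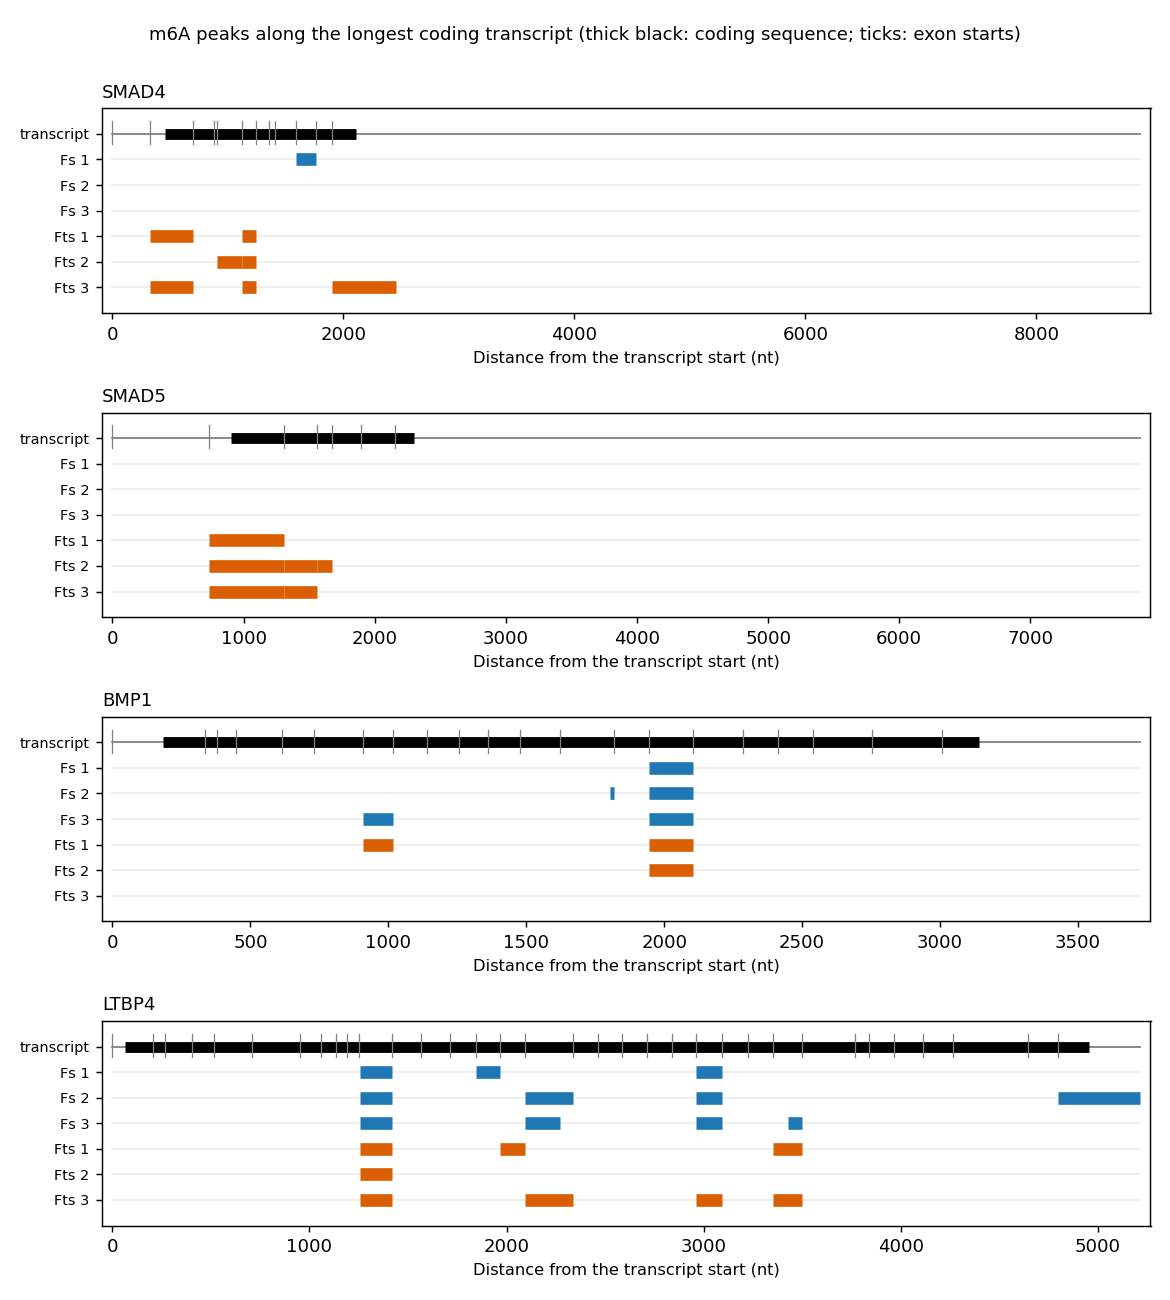
m6A peaks of each IP sample (rows; Fs blue, Fts orange) along the longest coding transcript of SMAD4, SMAD5, BMP1 and LTBP4 (x axis, distance from the transcript start in nt). The top line of each panel shows the coding sequence as a thick bar and exon starts as ticks. SMAD5 peaks begin at the second exon in all Fts samples, BMP1 has the same exon in 5 samples, and LTBP4 has its eleventh exon in all 6 samples.

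A comparison of each gene's highest score, which is not a height of the peak, was added after the peak numbers had been seen. The highest score was higher in every Fs than in every Fts sample for 5 of the 29 genes (17.2%), ACVR1C, BMP1, LTBP2, LTBP4 and SMURF1, beside 10.7% of all genes. It was higher in every Fts sample for SMAD4 and SMAD5 again (6.90%), beside 13.2% of all genes. Over all peaks, the median score was 11.4 ± 0.613 in Fs and 14.1 ± 1.62 in Fts, so the general shift of the lists ran toward higher scores in Fts. With each score turned into its percentile among the peaks of its sample, the same 5 and 2 genes were called, beside 12.5% and 11.7% of all genes. LTBP2 was not picked by the rule for naming genes and was named after its values were seen.

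BMP1, the protease that trims procollagens and frees latent TGF-beta family ligands (chr14, plus strand, 21 exons), held the second-highest score of all TGF-beta and BMP peaks. Its region was the whole of exon 15, chr14:6472831-6472991, 161 nt of coding sequence, with scores of 1168, 926 and 749 in Fs and of 37.4, 56.6 and no peak in Fts. The lowest Fs score lay far above the highest Fts score. The number of BMP1 peaks did not separate the groups, with 1, 2 and 2 in Fs and 2, 1 and 0 in Fts, and it did not at a lowest score of 20 or 50 either. The other BMP1 peaks were weak, at 6.41 in Fs 3 and 5.25 in Fts 1 on exon 7 and at 4.77 in Fs 2 on exon 13.

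LTBP4, which ties latent TGF-beta to elastic fibres (chr6, plus strand, 34 exons), had the most peaks of any of these genes, 4, 4 and 4 in Fs and 3, 1 and 4 in Fts (4.00 ± 0 and 2.67 ± 1.53, n = 3; two-sided exact permutation test, p = 0.4). Its highest scores were 1164, 487 and 935 in Fs and 221, 94.6 and 248 in Fts. Every Fs sample was above every Fts sample, but the exon that carried the highest score was not the same throughout. It was exon 15 (chr6:48843690-48843815) in Fs 1 and exon 17 (chr6:48845195-48845437) in Fs 2 and Fs 3. In all Fts samples it was exon 11. Exon 17 was also listed in Fts 3 at 151, and exon 16 in Fts 1 only, at 152.

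Of the 4 regions with a peak in all 6 samples, exon 11 of LTBP4 (chr6:48841015-48841173) had the scores 53.8, 5.69 and 281 in Fs and 221, 94.6 and 248 in Fts, which overlapped. Exon 23 of LTBP4 had scores of 51.1, 84.5 and 157 in Fs and of 8.43 in Fts 3 alone, so the Fs samples were all higher. Exons 15 and 16 are each 126 nt long and repeat a related sequence, with 88 identical bases (69.8%) and a longest shared run of 13 bases. Exon 17 matched them at 58.7% and 60.3% over 126 bases. The windows show how alike the repeated exons are at the place of their form, next to exon 17.
LTBP4 exon 15, chr6:48843732-48843756, plus strand: ggcgctgcgaAAACAcaccaggcag
LTBP4 exon 16, chr6:48844607-48844631, plus strand: ggcgctgcgaGAACAcgccaggcag
LTBP4 exon 17, chr6:48845237-48845261, plus strand: gggtctgtgaGAACCtgcctggctc

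LTBP2, a matrix protein of the same family that binds microfibrils (chr7, minus strand, 35 exons), had 2, 1 and 1 peaks in Fs and 0, 1 and 2 in Fts. On exon 5 (chr7:97799001-97799142) its scores were 485, 289 and 391 in Fs, against no peak, 154 and 108 in Fts. The groups overlapped in number and not in highest score. The remaining family members were sparse: LTBP1 had 1, 1 and 0 peaks in Fs and 1, 0 and 1 in Fts, on 4 different regions with a highest score of 16.5, and LTBP3 had 1 peak in Fs 1, on exon 11, and 1 in Fts 1, on the last exon.

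SMURF1, the ubiquitin ligase that acts on BMP SMADs (chr3, minus strand, 18 exons), held the highest score of all, 1235. Its region, chr3:6142196-6142997, covered 374 bases of annotated exon at the start of the gene and ran 428 bases beyond it. It was listed in all 6 samples, with scores of 1235, 1106 and 881 in Fs and 38.3, 867 and 17.9 in Fts. Fts 2 reached nearly the lowest Fs sample while Fts 1 and Fts 3 were low, so the gap between the groups was narrow and rested on the order of 881 and 867. In number, SMURF1 had 1, 1 and 1 peaks in Fs and 2, 2 and 1 in Fts, the extra Fts peaks being weak (7.41 on exon 3 in Fts 1 and 17.4 in the 3'UTR in Fts 2). With a lowest score of 20 the sign of that difference turned, from 0.667 to -0.333 peaks. The BMP1, LTBP2 and SMURF1 windows below belong to the regions with the highest Fs scores of these genes.
BMP1 exon 15, chr14:6472900-6472924, plus strand: cccctaacaaAAACTgcatctggca
LTBP2 exon 5, chr7:97799065-97799089, minus strand: atctgcaagcAGACCtgtgcccatg
SMURF1 5′ exon, chr3:6142470-6142494, minus strand: cagcggctctGGACTgggctcggct

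**Figure D4:**
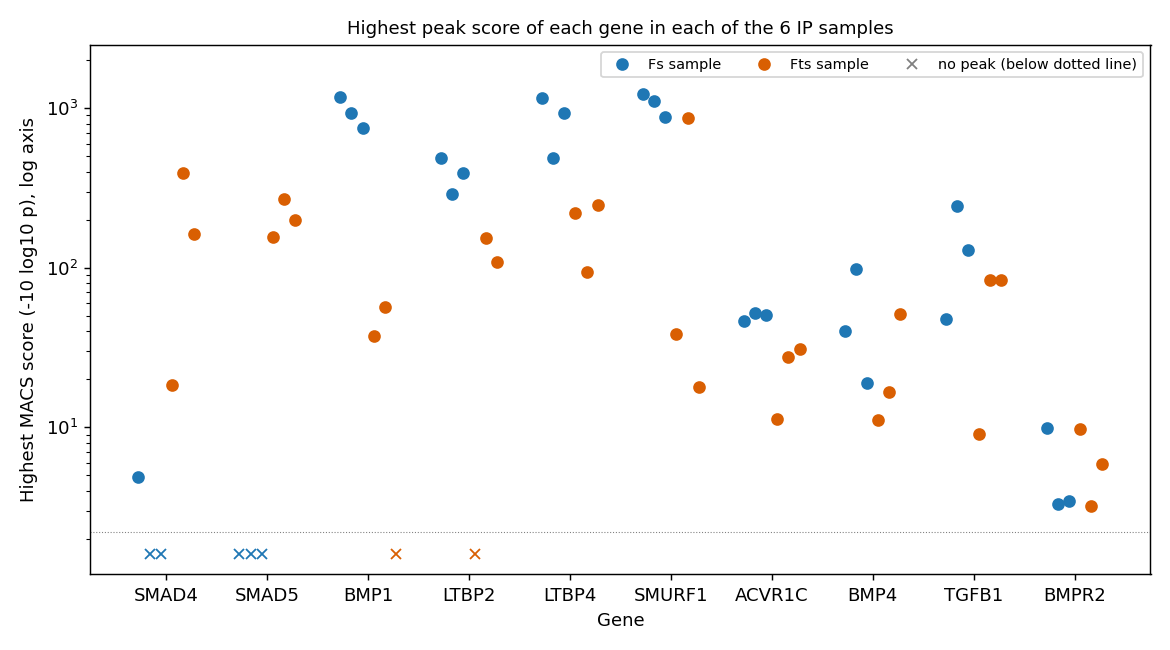
Highest MACS score of each gene (y axis, log scale, read as 10 times -log10 p) in each of the 3 Fs and 3 Fts IP samples. Crosses below the dotted line are samples with no peak. SMAD4 and SMAD5 have all Fts points above the Fs points, BMP1, LTBP2, LTBP4, SMURF1 and ACVR1C have all Fs points above the Fts points, and BMP4, TGFB1 and BMPR2 overlap.

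Among the receptors, ACVR1C (ALK7, a type I receptor for activins and Nodal; chr15, minus strand) was 1 of 6 genes (20.7%) with a peak in all 6 samples, beside 13.5% of all genes. Its highest scores were 46.1, 52.1 and 50.6 in Fs and 11.3, 27.5 and 31.0 in Fts, all Fs samples being higher. It held 2 regions. Exon 6, chr15:64469525-64469681, was listed at 9.08, 52.1 and 50.6 in Fs and at 27.5 and 31.0 in Fts 2 and Fts 3. An exon at the 5′ end of its other transcripts, chr15:64529005-64529107, was listed in all 6 samples at 46.1, 48.5 and 12.3 in Fs and 11.3, 14.8 and 3.18 in Fts.

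BMPR2, the type II receptor for BMPs (chr15, plus strand, 13 exons), also had a peak in all 6 samples, with 1, 1 and 2 in Fs and 2, 1 and 1 in Fts. These were weak throughout, from 3.19 to 9.95, and lay on 4 different regions, none of which was listed in all 6 samples. The most shared, chr15:105971200-105971668, was listed in all Fs samples and in Fts 1, and 377 of its 469 bases lay beyond the gene. ACVR1, a BMP type I receptor, had 0, 2 and 1 peaks in Fs and 0, 1 and 1 in Fts. On its exon 2, which holds the start codon, the scores were 16.5 and 26.9 in Fs 2 and Fs 3 and 12.9 and 24.0 in Fts 2 and Fts 3, close in both groups. BMPR1B, also a BMP type I receptor, had 2, 1 and 2 peaks in Fs and 0, 1 and 1 in Fts, up to 28.6 in Fs 1, and its groups overlapped at 1 peak. TGFBR2, the type II receptor for TGF-beta, was listed in Fs 2 and Fs 3 alone at 4.83 and 5.71. The type I receptor TGFBR1 was listed in Fs 2 at 4.84, and BMPR1A in Fts 1 and Fts 3 at 7.35 and 4.83. ACVRL1, an endothelial type I receptor, had its peaks near the stop codon in 4 samples, from 14.1 to 49.0, and ACVR2A, an activin type II receptor, had 1 peak in Fs 2 and 1 in Fts 3.

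Among the ligands, TGFB1 (chr6, minus strand, 7 exons) had 1, 2 and 1 peaks in Fs and 1, 2 and 2 in Fts, with highest scores of 47.7, 243 and 129 in Fs and 9.14, 83.9 and 84.1 in Fts. The groups overlapped in both. The region with the high scores, chr6:49333257-49334540, ran from exon 6 to exon 7 and held 920 bases of the last intron beside 364 of exon. It was listed in all Fs samples and in Fts 2 and Fts 3. A stretch of exon 1 over the start codon, chr6:49347844-49348198, ran the other way, with a score of 3.18 in Fs 2 alone and of 9.14, 29.8 and 38.3 in the Fts samples, all Fts samples being higher.

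BMP4 (chr1, minus strand, 4 exons), known in the germline for the making of primordial germ cells, had 1, 2 and 2 peaks in Fs and 1, 1 and 2 in Fts. Its 5′ region, chr1:183422571-183422839, was listed in all 6 samples at 40.1, 98 and 18.9 in Fs and 11.2, 16.6 and 51.3 in Fts, which overlapped. A region on exon 3 was added at 5.16 and 5.48 in Fs 2 and Fs 3. TGFB3 had 3, 1 and 0 peaks in Fs and 2, 0 and 2 in Fts, up to 24.6 in Fts 1.

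TGFB2 had the most uneven signal of the ligands, with a score of 300 in Fts 3 on 35 bases of exon 3, none there in the other samples, and 6.34 on exon 6 in Fs 2. INHBA and INHBC, beta chains of activins and inhibins, were listed in Fs alone. INHBA had 1, 0 and 1 peaks there, at 7.88 and 16.8, and INHBC had 0, 1 and 2, up to 14.4. GDF1 and GDF11 were listed in Fts alone, each in 2 samples. The GDF1 region was on 279 bases of its last exon and on 870 beyond the gene, with a highest score of 30.7 in Fts 2, and GDF11 reached 11.0 in Fts 3. BMP7 had 1, 1 and 0 peaks in Fs and 0, 1 and 0 in Fts in the 3'UTR, at 27.0 in Fs 2 and under 4.00 elsewhere, and BMP3 had 1 peak at 4.53 in Fts 3.

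The peaks of the 6 samples formed 66 regions, of which 33 (50%) were listed in 1 sample only, beside 47.6% over all genes. A peak in all Fts and no Fs sample was found for 2 regions (3.03%), exon 6 of SMAD4 and exon 2 of SMAD5, beside 6.78% of all regions. The opposite pattern had 0 regions, beside 3.65% of all, and 0 of the 29 genes, beside 4.16% of all genes. A peak in all 6 samples was found for 4 regions (6.06%), in ACVR1C, BMP4, LTBP4 and SMURF1, beside 3.23% of all. The peak ends followed exon ends: 31 regions (47.0%) were exactly 1 whole exon, beside 50.4% of all regions.

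Of 71 other genes of the pathway, 70 were annotated and 40 had a peak. More peaks in every Fts sample were found for 7, and more in every Fs sample for 2, set beside the 8.98% and 5.36% of all genes with a peak. None of 5 further ligands (NODAL, AMH, INHA, MSTN and LEFTY2) had a peak. Of 31 intracellular regulators 23 had one, and their summed number was 8, 20 and 15 in Fs and 23, 48 and 43 in Fts. With adjoining peaks joined these were 8, 19 and 15 in Fs and 22, 40 and 35 in Fts, so that every Fts sample was above every Fs sample. Without EP300, which held the most of these peaks, the groups overlapped, at 8, 20 and 15 in Fs and 18, 39 and 38 in Fts (18 against a highest Fs value of 19 with joined peaks). No value over all genes was set beside these sums.

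The genes with more Fts peaks came from a list drawn up for this pathway, so their links to SMADs follow from that choice. EP300, an acetyltransferase that SMADs recruit, had no Fs peak and 5, 9 and 5 in Fts, and its relative CREBBP had 0, 0 and 1 in Fs and 4, 3 and 4 in Fts. SKP1, a subunit of a ubiquitin ligase, had no Fs peak and 2, 4 and 3 in Fts. ZFYVE16, an endosomal protein that binds SMADs, had no Fs peak and 1, 2 and 2 in Fts, at scores of 89.8, 123 and 123. RNF111, a ubiquitin ligase that acts on SMAD inhibitors, had 0, 1 and 0 in Fs and 2, 2 and 3 in Fts. TLL1, a protease like BMP1, had no Fs peak and 2, 2 and 1 in Fts, with highest scores of 3.76, 26.36 and 5.19. ID4, a BMP target gene, had no Fs peak and 1, 1 and 2 in Fts, with highest scores of 9.65, 25.05 and 33.55. CHRD, a secreted BMP antagonist, and TGIF2, a repressor of SMAD transcription, went the other way with 1 peak in every Fs sample and none in Fts.

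The methods of the study name a treatment of the sperm pellet with Triton X-100 against somatic cells before RNA extraction. Peaks on genes that mark sperm or other cells were counted too. A marker's peaks are not its RNA level, so they check the label of a sample only in part. Of 17 sperm markers 8 had a peak, with 3 to 5 in the Fs samples and 6 or 7 in the Fts samples. With adjoining peaks joined the sums were 4, 3 and 5 in Fs and 5, 5 and 5 in Fts, which overlapped. Peaks lay on PRM2 in Fts 2, PRM3 in Fts 1 and Fts 3, TNP2 in Fts 3, and ODF2 in Fts 1 and Fts 2. ZPBP and SPATA18 had a peak in every Fts sample alone, and ACR in every Fs sample alone. AKAP3 had 2, 1 and 3 peaks in Fs and 0, 0 and 1 in Fts. PRM1, TNP1, ODF1, AKAP4, SMCP, GAPDHS, TSSK6, HSPA1L and SPAM1 had none in any sample. Of 7 leukocyte markers 4 had a peak, with 2 in each Fs sample and 1 or 2 in Fts, which overlapped. Of 6 epithelial markers 5 had one, with 2 in each Fs and 7 in each Fts sample. Joined across exons, the Fts sums were 6, 6 and 7. KRT8 was at 0 in Fs and at 3, 4 and 2 in Fts. KRT18 had 0, 0 and 1 in Fs and 2, 1 and 1 in Fts, and KRT19 1, 0 and 0 in Fs and 1, 2 and 2 in Fts. CDH1 had 0, 1 and 1 in Fs and 0, 0 and 1 in Fts. MUC1 had 1, 1 and 0 in Fs and 1, 0 and 1 in Fts, and EPCAM was at 0 throughout. Of 11 annotated stromal markers 8 had one, with 7 to 9 in Fs and 31 to 39 in Fts, of which FN1 alone gave 32, 31 and 27 in Fts. With adjoining peaks joined the stromal sums were 7 to 8 in Fs and 14 to 17 in Fts, and PDGFRB, COL6A2 and COL6A3 were at 0 throughout. Without FN1 these joined sums were 6, 6 and 8 in Fs and 7, 2 and 4 in Fts, which overlapped. VIM had 1 peak in every Fs sample and none in Fts, while COL1A2 had none in Fs and 3, 1 and 1 in Fts. The part of RNA from other cells in the SMAD peaks was not tested.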

How the data were processed

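MeRIP-seq gave 12 libraries, of which the 6 IP samples have deposited peak lists. The authors trimmed reads with cutadapt 1.9.3 and aligned them to susScr11 (Sscrofa11.1) with HISAT2. They called the peaks of each sample against its own input with MACS and kept peaks on mRNAs. The MACS version is not given in the sources used here. The value the authors deposited for a peak is its MACS score. Exon ends cut many listed peaks, so that 1 stretch of signal can be listed several times. The list of differential sites holds the authors' own comparison and was not used.

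Samples were grouped by their labels. Within a group, 33.7% to 37.1% of the smaller of a pair of lists had the same coordinates in the other, so no list was a copy. All 61902 peaks lay on named sequences of the RefSeq assembly (annotation release 106). A peak was assigned to every mRNA gene with an exon on its strand by at least 1 bp, and its midpoint was placed on the longest coding transcript, with codon classes of 100 nt to each side. INHBA has a second, partial placement without coding sequence, which held 0 peaks and was left out. A region is the merged span of a gene's peaks in the 6 samples. Groups were compared by whether all samples of the one lay above all samples of the other, with the share of all genes or regions so called as background, and by two-sided exact permutation tests for named genes.

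Named genes were those with groups that did not overlap in number, a peak in all 6 samples, a region in all samples of 1 group alone, or 1 of the 5 highest scores. Of the other pathway genes, those with groups that did not overlap in number were named. The members and lists were chosen with earlier results of these data known. Alternatives were a lowest score of 20 or 50, equal peak numbers per sample (8015), the midpoint in an exon, peaks on 1 gene only, joined peaks, codon classes of 200 nt, 50 covered bases, the replicate block and each replicate left out. Those on the highest score and on percentiles were added after seeing the data. Scripts ran in Python 3.11.15 with numpy 2.4.6 and pysam 0.24.0 and were tested on simulated data.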

Additional observations from a re-analysis of the deposited data

How the results depend on the processing

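Of the values computed under 16 alternatives, 249 moved by less than the spread between replicates or kept their call, 37 counts or differences moved further, 2 values of SMURF1 turned sign, and 2 gained and 3 lost groups that did not overlap. Small differences also turned sign within that spread: the difference in peaks, from -2.33 to 2.5, under 6 of 13 alternatives, and that in genes with a peak, from -1 to 2.33, under 5 of 13. SMAD5 had more peaks in every Fts sample under each of these, and SMAD4 under all but 3: a lowest score of 20 (mean difference 1), of 50 (1) and joined peaks (1.67). Each of the 3 left 1 gene with more Fts peaks, beside 11.3%, 12.3% and 8.06% of all genes. A lowest score of 20 and of 50 left 17 and 11 of the 29 genes, and 25 and 17 of the 66 regions. In these smaller sets, genes with a peak in all 6 samples fell from 6 to 1 (beside 7.36% and 5.34% of all genes). By the midpoint rule there were 3 of 28 (13%). Regions in all Fts and no Fs sample fell from 2 to 1 at 20 and 50 (beside 8.44% and 9.44% of all regions). Those in all 6 samples fell from 4 to 0 (3.0% and 2.5%). In all Fs and no Fts sample, 1 region was listed (3.48% and 3.58%). At both scores 1 gene had a higher Fts score (beside 14.4% and 15% of all genes). At 20 and 50, the difference in peaks per 1000 was -1.16 and -2.60, the difference in the coding share 19.7 and 12.3 percentage points (-4.04 with codon classes of 200 nt), and that of SMURF1 -0.333 and -0.667 peaks. By the midpoint rule TGFB1 scored higher in Fts and SMURF1 was no longer higher in Fs. Leaving out each replicate in turn gave 2 to 4 genes with more Fts peaks (4 without Fts replicate 3, which added GDF1 and SMURF1 at 1, beside 12.2% of all genes). With more Fs peaks there were 0 to 2 genes. These were INHBC and TGFBR2 without Fs replicate 1 (beside 10.6% of all genes), BMPR1B and INHBA without Fs replicate 2 (8.01%), and LTBP4 at -2 without Fts replicate 3 (8.02%). In all Fts and no Fs sample there were 1 to 2 genes (beside 7.02% to 8.78% of all genes) and 2 to 5 regions (5 without Fts replicate 2, beside 10.3% of all regions). In all Fs and no Fts sample there were 0 to 2 genes and 0 to 2 regions (2 of each without Fs replicate 1, beside 7.73% of all genes and 7.88% of all regions). Every sample left held a peak on 4 to 7 regions (7 without Fts replicate 1, beside 4.48% of all regions). A higher Fs score was found for 5 to 8 genes (8 without Fs replicate 1, beside 18.2% of all genes), so the background rose as well. The cause of these moves was not tested. Deviations of samples with the same number correlated at 0.0103, -0.0143 and 0.0129. Such values from a few peaks per gene cannot decide whether these samples share a boar. The methods of the study name a paired design, but the labels tie no number to a boar. So the samples were compared unpaired, with the replicate block as an alternative. With the replicate block 2 genes had more Fts peaks (beside 10.8% of all genes) and 0 had more Fs peaks (6.86%). A higher Fs score was found for 6 (13.6%), with TGFB1 added. The lists give no reads at a peak, so a missing peak cannot be told from a lack of reads.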
